A study of Homo sapiens with 6 samples.

Results

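PC9 cells that received shRNAs against both KDM5A and KDM5B were compared with PC9 cells that received the KDM5A shRNA alone, all under erlotinib. PC9 is an established human lung adenocarcinoma line whose growth depends on an activating EGFR mutation, and erlotinib inhibits the EGFR kinase. Messenger RNA of single cells was counted by Drop-seq, in which cells are caught in droplets with barcoded beads and every captured molecule gets a unique molecular identifier (UMI). A barcode was taken as a cell when it held at least 500 UMIs, of which at most 20% came from mitochondrial transcripts. This left 152 cells with KDM5A and KDM5B shRNA and 374 cells with KDM5A shRNA, or 526 of the 2288 cells in all 6 libraries. Both libraries were made from cells that carried pLVTHM vectors with GFP, were kept in 10% FBS after transduction and were given 2 µM erlotinib for 1 day. They differed in more than the second shRNA. The KDM5A and KDM5B shRNA cells were exposed to 2 viruses, 100 µL of each stock, and met erlotinib on day 5 after transduction, against 1 virus and day 4 for the KDM5A shRNA cells. The number of viruses, the interval before the drug and KDM5B shRNA cannot be told apart in this pair. Of the other libraries, 2 had erlotinib with either the KDM5 inhibitor CPI455, at 6.25 µM for 4 days, or KDM5A cDNA from a pLenti vector, with the drug on day 6. The remaining 2 had no drug and were either transduced with a scrambled shRNA in pLVTHM or left untreated. The CPI455 and untreated cells were in 5% FBS.

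KDM5A and KDM5B are histone demethylases that remove methyl groups from lysine 4 of histone H3, a mark found at active promoters. In EGFR-mutant lung cancer lines, KDM5A is known for its raised level in the slow-cycling cells that survive short exposure to EGFR inhibitors. KDM5B is known for the same in slow-cycling melanoma cells. Knockdown with shRNA lowers a transcript without removing the gene, and it acts only in cells that took up the virus.

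The kept cells held 725788 UMIs with KDM5A and KDM5B shRNA against 1596385 with KDM5A shRNA, with medians of 3762.5 and 3319.5 UMIs per cell. Levels are given in CPM, UMIs per 1000000 UMIs of the library. A count of 0 allows up to 4.13 CPM in the KDM5A and KDM5B shRNA library and 1.88 CPM in the KDM5A shRNA library, at 3 counts. With 1 library per condition nothing was tested, and no p-value is given. Ratios are KDM5A and KDM5B shRNA over KDM5A shRNA and carry exact 95% intervals for a ratio of 2 Poisson counts, which cover counting error only, and "higher" and "lower" describe these libraries. The libraries shared 0 kept barcodes. Kept barcodes ending in the letter N, whose meaning the labels do not give, numbered 43 of 152 with KDM5A and KDM5B shRNA against 118 of 374 with KDM5A shRNA. Leaving them out gave 258 genes at least 2-fold higher and 152 lower, against 336 and 178 with them. They stood apart in RNA quality: of barcodes with at least 500 UMIs, 33 of 185 (17.8%, 95% exact binomial interval 12.6 to 24.1) exceeded the mitochondrial limit with KDM5A and KDM5B shRNA, against 5 of 379 (1.32%, 0.430 to 3.05) with KDM5A shRNA and 0.766% to 9.03% elsewhere. Pseudogene symbols took 2.86% of UMIs with KDM5A and KDM5B shRNA against 1.53% with KDM5A shRNA. The part of these differences in the results below was not tested. Of 12 markers of lung adenocarcinoma epithelium, 8 had UMIs with KDM5A and KDM5B shRNA against 10 with KDM5A shRNA, at a summed 11404 and 10777 CPM. Leukocyte, endothelial and fibroblast markers summed to 35.8, 22.0 and 8.27 CPM with KDM5A and KDM5B shRNA, and to 25.1, 15.03 and 5.01 CPM with KDM5A shRNA.

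The targeted transcripts were examined first. KDM5A stood at 41.3 CPM with KDM5A and KDM5B shRNA (30 UMIs) and 56.4 CPM with KDM5A shRNA (90 UMIs), a log2 ratio of -0.45 (-1.10 to 0.16). It was lower in both than the 81.9 CPM of the scrambled library. KDM5A stood at 120 CPM with CPI455, 164 CPM with KDM5A cDNA and 121 CPM untreated. KDM5B stood at 138 CPM with KDM5A and KDM5B shRNA (100 UMIs), against 151 CPM with KDM5A shRNA (241 UMIs), a log2 ratio of -0.13 (-0.48 to 0.21). The KDM5B transcript was therefore not measurably lower in the library labelled as carrying its shRNA. Both libraries lay above the 46.4 and 60.4 CPM of the scrambled and untreated libraries. So did the other erlotinib libraries, at 102 CPM with CPI455 and 94.9 CPM with KDM5A cDNA. The sign of both ratios depended on how cells were weighted: as a mean of per-cell CPM they were 0.10 for KDM5A and 0.15 for KDM5B, and KDM5A was at 0.14 over cells thinned to 1000 UMIs. In those thinned cells KDM5B was found in 11 of 124 cells (8.87%, 4.51 to 15.3) and in 46 of 332 cells (13.9%, 10.3 to 18.05), in the same order. EGFR was at 273 CPM with KDM5A and KDM5B shRNA and at 335 CPM with KDM5A shRNA, a log2 ratio of -0.30 (-0.54 to -0.06).

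The vector itself was counted, as an entry named pLVTHM. It had 66 UMIs with KDM5A and KDM5B shRNA, or 90.9 CPM, and 134 UMIs with KDM5A shRNA, or 83.9 CPM, a log2 ratio of 0.12 (-0.33 to 0.55). At least 1 vector UMI was seen in 41 of 152 cells (27.0%, 20.1 to 34.8) with KDM5A and KDM5B shRNA and in 73 of 374 cells (19.5%, 15.6 to 23.9) with KDM5A shRNA, against 11 of 263 cells in the scrambled library and 0 cells in the 3 libraries without a pLVTHM virus. After thinning, the shares were 9.68% (5.10 to 16.3) and 6.33% (3.96 to 9.51), with intervals that overlapped. This entry does not show which shRNA a cell carried.

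Among the other histone lysine demethylases, 12 had symbols in the data and 11 reached the 30 UMIs over both libraries that a gene needed to enter the comparison. KDM1A, a flavin-dependent demethylase of the same H3 lysine, was at 251 CPM with KDM5A and KDM5B shRNA against 164 CPM with KDM5A shRNA, a log2 ratio of 0.61 (0.33 to 0.89). KDM4B, a demethylase of H3 lysine 9, had 3 UMIs with KDM5A and KDM5B shRNA against 35 with KDM5A shRNA, a log2 ratio of -2.41 (-4.75 to -0.74). By members the family was mixed, with 6 above 0, 5 below and a median of 0.05. Its 12 genes summed to 558 CPM with KDM5A and KDM5B shRNA against 465 CPM with KDM5A shRNA, a log2 ratio of 0.26 (0.08 to 0.44), and to 510 to 548 CPM in the other 4 libraries. Of the H3 lysine 4 methyltransferase complexes, 7 genes entered, with 2 above 0 and 5 below, and the shared subunit DPY30 stood at -0.12 (-0.46 to 0.22).

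Across all 7912 genes that entered, the libraries were close, with a median log2 ratio of -0.01. At least 2-fold higher with KDM5A and KDM5B shRNA were 336 genes (4.25%), and at least 2-fold lower were 178 (2.25%). Log2 ratios above 0 made up 48.7% and those below 0 made up 51.3%. Most genes past 2-fold on the high side were pseudogene symbols or clone-style names: 119 of 255 pseudogene symbols and 109 of 342 clone-style names were past it, against 104 of 7222 other genes. On the low side 175 of 178 were other genes. The named genes below are the 15 highest and 15 lowest of 3554 ranked genes, by the interval bound nearest 0, and list members. ANLN, MIF and PPIA lay just outside the 15 highest, and CLTB, MYH9 and RRP36 just outside the 15 lowest.

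**Figure D1:**
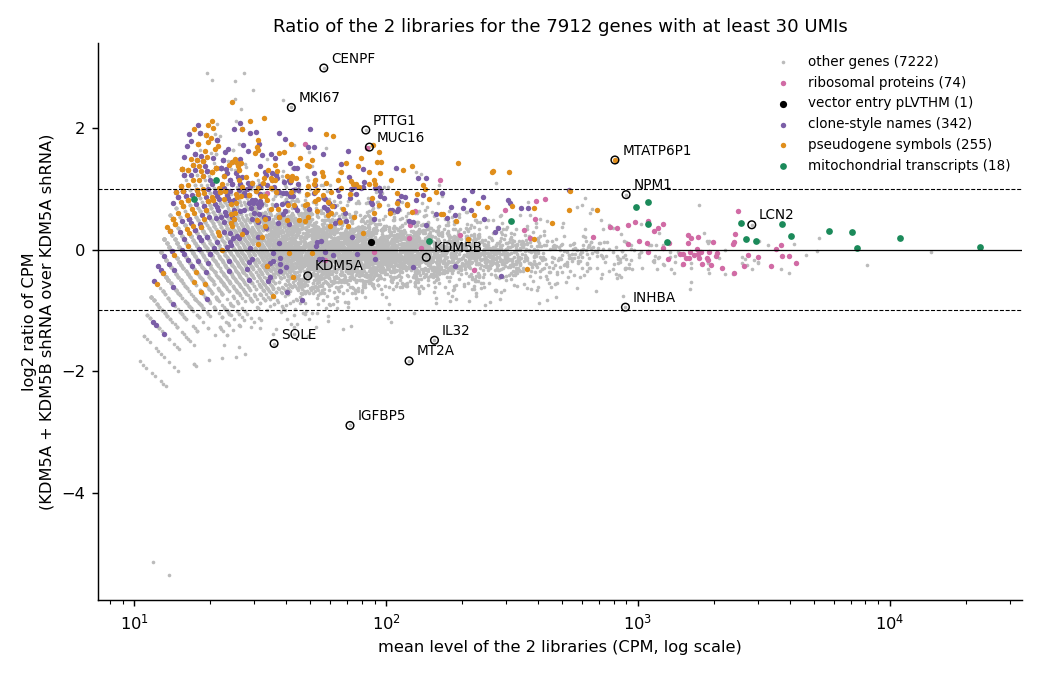
Each point is 1 of the 7912 genes, with its mean CPM over both libraries on a log scale across and its log2 ratio, KDM5A and KDM5B shRNA over KDM5A shRNA with 0.5 added to each count, upward. Dashed lines mark 2-fold. Pseudogene symbols and clone-style names lie mostly above 0, while CENPF and MKI67 at the top and IGFBP5 and MT2A at the bottom stand out from the other genes at their level.

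Genes of the G2 and M phases of the cell cycle were higher with KDM5A and KDM5B shRNA. The top of the ranking held CENPF, a kinetochore protein of dividing cells, at 101 CPM with KDM5A and KDM5B shRNA against 12.5 CPM with KDM5A shRNA, a log2 ratio of 3.01 (2.28 to 3.80). MKI67, the Ki-67 proliferation antigen, was at 70.3 and 13.8 CPM in the same order, a log2 ratio of 2.35 (1.60 to 3.14). PTTG1, or securin, which holds sister chromatids together until anaphase, was at 132 and 33.8 CPM, a log2 ratio of 1.97 (1.47 to 2.48). HMGB2, a chromatin protein abundant in cycling cells, and PRR11, a proliferation-linked gene, had log2 ratios of 1.61 and 2.47. KIAA0101, a factor that binds the replication clamp PCNA, is named here for its rank and not as a gene of these phases. Its log2 ratio was 2.65 (1.70 to 3.68). Of the 29 list members in the data, 28 were higher with KDM5A and KDM5B shRNA, and BUB3, a spindle checkpoint protein, was at 55.1 CPM with KDM5A and KDM5B shRNA against 65.8 CPM with KDM5A shRNA. Of the 19 that entered, 12 were at least 2-fold higher, against 4.25% of all genes, with a median of 1.51 against -0.01. Entry counts both libraries together, so a member can enter through the library where it is higher, and these 2 values depend on it. The median was 1.51 with entry at 1 UMI over both libraries and 0.11 with entry at 100 UMIs. The summed level of all 29 was 1210 CPM (878 UMIs) with KDM5A and KDM5B shRNA and 601 CPM (960 UMIs) with KDM5A shRNA. CCNB1, the mitotic cyclin, HMMR, a spindle protein, and TOP2A, the topoisomerase of chromosome segregation, had log2 ratios of 2.14 (1.20 to 3.14), 2.82 (1.76 to 4.00) and 2.33 (1.38 to 3.35).

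The members with the most UMIs differed least. TUBB4B, a beta-tubulin, was at 160 CPM with KDM5A and KDM5B shRNA against 145 CPM with KDM5A shRNA, and CKS2, a cyclin-dependent kinase subunit, was at 85.4 and 82.1 CPM in the same order. Without barcodes ending in N the median of the list was 1.05. With entry raised to 100 UMIs over both libraries, the list's median was 0.11. All 29 members in the KDM5A and KDM5B shRNA library stayed below both drug-free libraries, whose summed levels were 5429 CPM with the scrambled shRNA and 7944 CPM untreated. The other erlotinib libraries summed to 1225 CPM with CPI455 and 1107 CPM with KDM5A cDNA. The KDM5A shRNA library was thus the lowest of the 6.

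**Figure D2:**
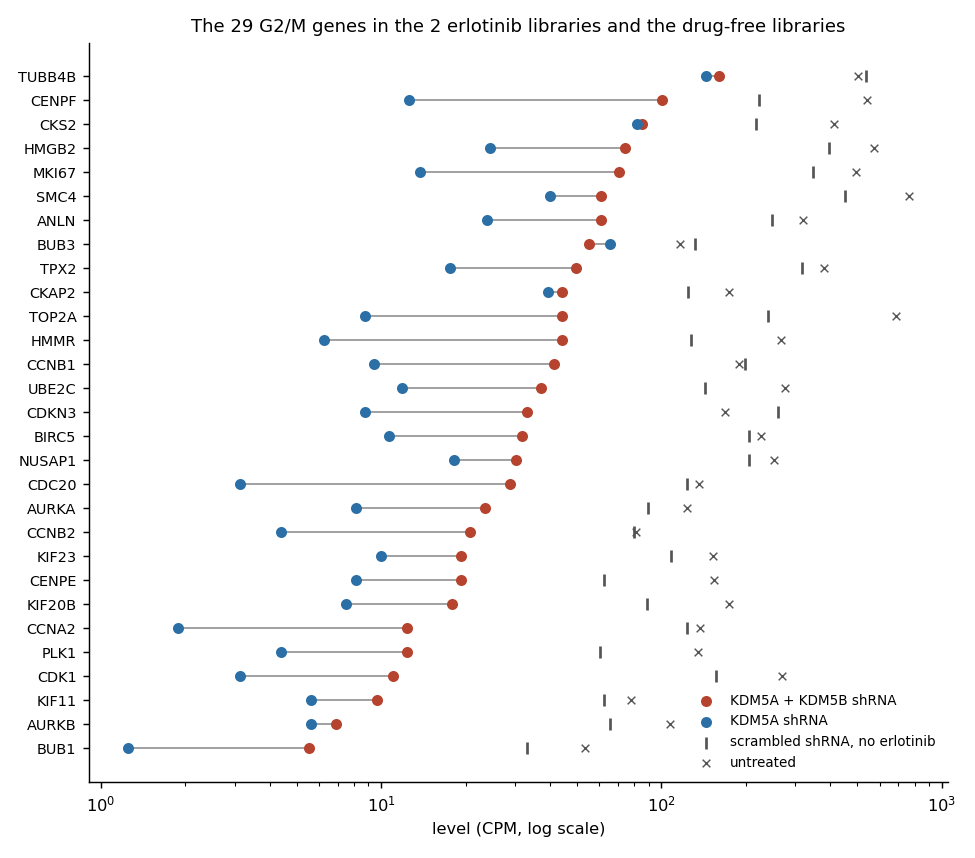
The level in CPM, on a log scale, of each of the 29 G2/M genes in the KDM5A and KDM5B shRNA library, the KDM5A shRNA library, and the scrambled and untreated libraries, each point being 1 library. CENPF, at 101 and 12.5 CPM, has 1 of the longest gaps, TUBB4B and CKS2 have almost none, and both drug-free libraries lie to the right of the erlotinib libraries for every gene.

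Promoters of CENPF and MKI67, the 2 best-known members at the top, are shown because genes of this list are known to share CCAAT boxes, bound by NF-Y, and cell cycle homology regions, bound by the repressive DREAM complex. RefSeq on GRCh38.p14 gave a promoter for 24 of the 30 listed symbols, of which 20 (83.3%) held CCAAT on either strand in the 250 bases before the start and 15 (62.5%) held TTTGAA on either strand. Among all 27305 promoters, these letters were found in 33.0% and 13.6%. These matches describe the letters and show no binding. The CENPF promoter lies at chr1:214602945-214603194 on the plus strand and the MKI67 promoter at chr10:128126424-128126673 on the minus strand, each printed 5′ to 3′. Capitals mark CCAAT or its reverse complement for CENPF and TTTGAA or its reverse complement for MKI67. The CENPF promoter held 0 TTTGAA matches, and the 2 CCAAT matches of the MKI67 promoter are not in capitals.
CENPF: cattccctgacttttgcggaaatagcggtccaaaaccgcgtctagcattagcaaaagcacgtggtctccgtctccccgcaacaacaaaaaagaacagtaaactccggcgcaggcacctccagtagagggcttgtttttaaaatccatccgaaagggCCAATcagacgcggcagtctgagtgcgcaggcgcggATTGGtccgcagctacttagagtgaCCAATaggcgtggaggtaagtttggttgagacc
MKI67: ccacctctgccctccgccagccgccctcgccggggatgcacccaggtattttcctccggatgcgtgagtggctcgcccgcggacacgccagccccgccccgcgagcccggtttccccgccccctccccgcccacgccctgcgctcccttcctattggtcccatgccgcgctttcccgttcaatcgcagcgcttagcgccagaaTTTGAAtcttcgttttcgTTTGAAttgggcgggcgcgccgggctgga

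Counted per cell, the G2/M difference lay in a small number of cells. Each cell was thinned to 1000 UMIs, which left out 28 cells with KDM5A and KDM5B shRNA against 42 with KDM5A shRNA. At least 1 G2/M UMI was found in 50 of 124 cells (40.3%, 31.6 to 49.5) with KDM5A and KDM5B shRNA and in 117 of 332 cells (35.2%, 30.1 to 40.6) with KDM5A shRNA. These shares overlapped, and with cells thinned to 2000 UMIs their order turned, at 59.4% and 64.8%. Without thinning they were 71.7% and 69.5%. The libraries differed among the cells with many such UMIs. At least 5 per cell, a limit chosen after the values were seen, were found in 10 cells (8.06%, 3.94 to 14.3) with KDM5A and KDM5B shRNA and in 4 cells (1.20%, 0.329 to 3.06) with KDM5A shRNA. The same share was 6.71% with CPI455 and 6.67% with KDM5A cDNA, and 51.4% and 55.4% in the scrambled and untreated libraries. The 10% of cells with most list UMIs held 68.5% of them with KDM5A and KDM5B shRNA against 56.3% with KDM5A shRNA.

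The single genes show how few cells were involved. MKI67 had a UMI in 18 cells with KDM5A and KDM5B shRNA and 6 cells with KDM5A shRNA before thinning, and CENPF in 19 and 11 cells. TOP2A was seen in 5 cells with KDM5A and KDM5B shRNA, of which 1 held 18 of its 32 UMIs, and all of its 14 UMIs with KDM5A shRNA came from 1 cell. The intervals on summed UMIs treat molecules as independent and so understate the error of genes concentrated in a few cells.

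**Figure D3:**
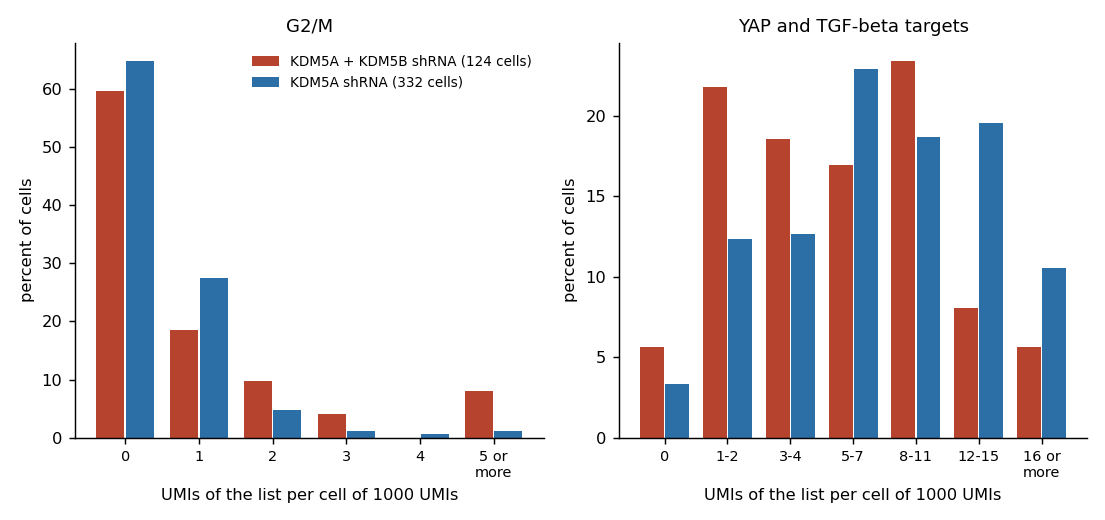
Percent of cells by the number of list UMIs in a cell thinned to 1000 UMIs, for 124 cells with KDM5A and KDM5B shRNA and 332 cells with KDM5A shRNA. In the G2/M panel the KDM5A and KDM5B shRNA cells are more frequent at 5 or more, 8.06% against 1.20%, and in the YAP and TGF-beta panel they are shifted to lower counts.

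A list of genes of S phase, in which DNA is replicated, did not share the G2/M pattern. The list does not hold KIAA0101, the PCNA-binding factor with a log2 ratio of 2.65. Of 10 that entered, 5 were above 0 and 5 below, none passed 2-fold, and the median was 0.08. Over all 25 members the sum was 539 CPM with KDM5A and KDM5B shRNA against 502 CPM with KDM5A shRNA, while it was 4787 and 3604 CPM in the scrambled and untreated libraries. At least 1 S phase UMI was found in 48.4% of thinned cells (39.3 to 57.5) with KDM5A and KDM5B shRNA and 36.7% (31.5 to 42.2) with KDM5A shRNA, an order that turned at 2000 UMIs per cell, with 61.3% and 63.2%. PCNA, the replication clamp, was at 31.7 and 27.6 CPM in the first 2, a log2 ratio of 0.20 (-0.59 to 0.96). Among 15 histone and chromatin protein genes, 9 were above 0 and 6 below, with a median of 0.15. They summed to 3917 CPM with KDM5A and KDM5B shRNA against 3827 CPM with KDM5A shRNA, a log2 ratio of 0.03 (-0.03 to 0.10). Of the 15, 4 were at least 2-fold higher, against 4.25% of all genes, namely H3F3A, HIST1H4C, H2AFX and HMGN2. HIST1H4C, a replication-dependent histone H4 gene, was at 101 CPM with KDM5A and KDM5B shRNA against 47.0 CPM with KDM5A shRNA, a log2 ratio of 1.10 (0.61 to 1.58). The histone genes HIST1H1C and HIST1H2BK went the other way, at -0.57 (-0.80 to -0.34) and -0.70 (-0.96 to -0.44).

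Of a list of metallothioneins, small proteins that bind zinc and copper and are induced by metals, together with a zinc exporter, 5 of 6 genes in the data were lower with KDM5A and KDM5B shRNA. MT2A, the most abundant, was at 53.7 CPM with KDM5A and KDM5B shRNA (39 UMIs) and 193 CPM with KDM5A shRNA (308 UMIs), a log2 ratio of -1.84 (-2.36 to -1.36). It was lower than in each of the other 5 libraries, which ranged between 77.8 and 504 CPM. MT1X was at 8.27 CPM with KDM5A and KDM5B shRNA against 23.2 CPM with KDM5A shRNA, a log2 ratio of -1.49 (-3.02 to -0.23). MT1E and MT1F had 0 UMIs with KDM5A and KDM5B shRNA against 14 and 22 with KDM5A shRNA, at least 2.12-fold and 3.33-fold lower at a floor of 3 counts per library. The zinc exporter SLC30A1, induced by the same metal-responsive factor, was at -1.40 (-3.13 to -0.01). MT1G had 1 UMI in each library, which makes its level higher with KDM5A and KDM5B shRNA. MT2A, MT1X and SLC30A1, the 3 of the list that entered, were at least 2-fold lower, against 2.25% of all genes, and the 6 in the data summed to 70.3 CPM with KDM5A and KDM5B shRNA against 257 CPM with KDM5A shRNA. In thinned cells MT2A was seen in 5.65% (2.30 to 11.3) with KDM5A and KDM5B shRNA and 15.4% (11.7 to 19.7) with KDM5A shRNA, and no KDM5A shRNA cell held more than 5.52% of the MT2A UMIs.

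The MT2A promoter is shown because it is a standard example of metal response elements, whose core TGCNCNC is bound by the zinc sensor MTF1. The 250 bases before the start, at chr16:56608334-56608583 on the plus strand (RefSeq, GRCh38.p14), held 7 matches on either strand, in capitals. This short core was found in 48.4% of the 27305 promoters, and in those of all 3 list members that matched.
MT2A: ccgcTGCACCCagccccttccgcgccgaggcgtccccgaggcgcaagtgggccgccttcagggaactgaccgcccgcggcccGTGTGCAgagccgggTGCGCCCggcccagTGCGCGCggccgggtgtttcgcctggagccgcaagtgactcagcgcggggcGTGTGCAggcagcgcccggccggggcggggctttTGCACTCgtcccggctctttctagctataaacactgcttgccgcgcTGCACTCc

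Targets of YAP and of TGF-beta, pathways that respond to cell shape and to wounding, were lower with KDM5A and KDM5B shRNA. Of 15 that entered, 13 were below 0, against 51.3% of all genes, with a median of -0.36, and 1 was past 2-fold. The summed level of 16 members was 6521 CPM with KDM5A and KDM5B shRNA against 9263 CPM with KDM5A shRNA, beside 1814 to 3964 CPM in the other 4 libraries. INHBA, the beta subunit of activin A, was at 609 CPM with KDM5A and KDM5B shRNA against 1175 CPM with KDM5A shRNA, a log2 ratio of -0.95 (-1.10 to -0.80). TPM1, an actin-binding tropomyosin, was at 1254 and 1959 CPM in the same order, and CALD1, caldesmon, at 1325 and 1916 CPM. ANKRD1, a YAP target, had 0 UMIs with KDM5A and KDM5B shRNA against 38 with KDM5A shRNA, at least 5.76-fold lower. CTGF and CYR61, the targets most often used to read YAP activity, stood closer, at -0.20 (-0.51 to 0.10) and -0.30 (-0.47 to -0.13).

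MYL9 and TUBA1A were among the 15 lowest genes of the ranking. MYL9, a myosin light chain, was at 172 CPM with KDM5A and KDM5B shRNA against 324 CPM with KDM5A shRNA, a log2 ratio of -0.91 (-1.20 to -0.63). TUBA1A, an alpha-tubulin, was at 63.4 and 147 CPM, a log2 ratio of -1.21 (-1.70 to -0.75). Of 5 mesenchymal genes that entered, 3 were below 0 and 2 above. Over these 5, 2 had an interval below 0 and 0 above, and of all 11 in the data 7 were lower and 4 higher. Of the lower ones, FN1, fibronectin, was at 145 and 227 CPM, and VIM, vimentin, at 20.7 and 37.6 CPM. INHBA was found in 31.5% of thinned cells (23.4 to 40.4) with KDM5A and KDM5B shRNA and 52.1% (46.6 to 57.6) with KDM5A shRNA. At least 5 UMIs of the YAP and TGF-beta list were found in 54.0% of thinned cells (44.9 to 63.0) with KDM5A and KDM5B shRNA and 71.7% (66.5 to 76.5) with KDM5A shRNA, with medians of 5 and 7 per cell. Unlike the G2/M genes, this list thus differed over most of the distribution of cells.

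IGFBP5, a secreted binding protein of insulin-like growth factors, had the lowest ratio among the ranked genes with UMIs in both libraries. It was at 16.5 CPM with KDM5A and KDM5B shRNA (12 UMIs) and 127 CPM with KDM5A shRNA (203 UMIs), a log2 ratio of -2.94 (-3.92 to -2.11). A single KDM5A shRNA cell held 58 of those 203 UMIs. In thinned cells it was seen in 1 of 124 (0.806%, 0.0204 to 4.41) with KDM5A and KDM5B shRNA and in 24 of 332 (7.23%, 4.69 to 10.6) with KDM5A shRNA. The related IGFBP3, the main circulating binding protein, was at 3438 CPM with KDM5A and KDM5B shRNA against 4515 CPM with KDM5A shRNA, a log2 ratio of -0.39 (-0.46 to -0.33).

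Among inflammatory genes, most of an NF-kB list were lower with KDM5A and KDM5B shRNA, and most of an acute-phase list were higher. In NF-kB signalling, inhibitors and cytokines are induced by the RELA and NFKB1 dimer, while acute-phase proteins such as serum amyloids and lipocalin are secreted products of inflamed epithelium. Of 14 NF-kB and inflammatory genes that entered, 10 were below 0, against 51.3% of all genes, and 2 were at least 2-fold lower, against 2.25% of all genes. Their median was -0.39, but it was -0.03 over cells thinned to 1000 UMIs. IL32, a proinflammatory cytokine, was at 81.3 CPM with KDM5A and KDM5B shRNA (59 UMIs) and 230 CPM with KDM5A shRNA (367 UMIs), a log2 ratio of -1.50 (-1.92 to -1.10). In thinned cells it was seen in 8.87% (4.51 to 15.3) and 19.3% (15.2 to 23.9), in the same order. SOD2, the mitochondrial superoxide dismutase, was at 172 CPM with KDM5A and KDM5B shRNA against 284 CPM with KDM5A shRNA, a log2 ratio of -0.72 (-1.02 to -0.43). NFKBIA, the feedback inhibitor of NF-kB, was at 254 and 317 CPM, a log2 ratio of -0.32 (-0.57 to -0.08). BIRC3, an inhibitor of apoptosis, was 1 of the 4 members above 0. It was at 109 CPM with KDM5A and KDM5B shRNA against 60.8 CPM with KDM5A shRNA, a log2 ratio of 0.84 (0.39 to 1.28). TRAF3, a brake on noncanonical NF-kB signalling that is not in that list, was at 42.7 and 103 CPM, a log2 ratio of -1.27 (-1.87 to -0.71).

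Over the 7 genes of a list of neutrophil chemokines with CCL20, the sum was 124 CPM with KDM5A and KDM5B shRNA against 219.9 CPM with KDM5A shRNA, but few cells carried them. In thinned cells the order of the sums turned, with 21 UMIs in 124 cells (0.169 per cell) against 42 UMIs in 332 cells (0.127 per cell). CXCL1 was at 26.2 CPM with KDM5A and KDM5B shRNA (19 UMIs) and 71.4 CPM with KDM5A shRNA (114 UMIs), a log2 ratio of -1.45 (-2.23 to -0.74). IL8, the symbol used for CXCL8 and also counted in the NF-kB list, was at 38.6 and 96.5 CPM in the same order, a log2 ratio of -1.32 (-1.96 to -0.73). A single KDM5A shRNA cell held 28 of the CXCL1 UMIs, and 1 held 29 of the 154 IL8 UMIs. In thinned cells CXCL1 was seen in 1.61% (0.196 to 5.70) with KDM5A and KDM5B shRNA and 2.11% (0.852 to 4.30) with KDM5A shRNA, and IL8 in 4.03% (1.32 to 9.16) and 5.72% (3.48 to 8.79). With summed thinned cells their log2 ratios were -0.16 and -0.23. CXCL6, of the same family, had 18 UMIs in each library and a log2 ratio of 1.14 (0.11 to 2.16), opposite in sign. The median of the 4 chemokines that entered was -1.06, and it was 0.24 when all 7 in the data entered with at least 1 UMI.

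Acute-phase and mucosal genes were higher with KDM5A and KDM5B shRNA in 8 of 9 that entered, against 48.7% of all genes, with a median of 0.34, although none passed 2-fold. SAA1, serum amyloid A1, was at 464 CPM with KDM5A and KDM5B shRNA against 269 CPM with KDM5A shRNA, a log2 ratio of 0.79 (0.58 to 0.99). LCN2, the siderophore-binding lipocalin, was at 3227 and 2435 CPM, a log2 ratio of 0.41 (0.33 to 0.48). C3, the central complement component, was at 203 and 120 CPM, a log2 ratio of 0.76 (0.44 to 1.08). The list summed to 5626 CPM with KDM5A and KDM5B shRNA against 4424 CPM with KDM5A shRNA, beside 1103 CPM with CPI455, 1034 CPM with KDM5A cDNA and 326 and 625 CPM without the drug. SAA1 was found in 32.3% of thinned cells (24.1 to 41.2) with KDM5A and KDM5B shRNA and 20.5% (16.3 to 25.2) with KDM5A shRNA. TNIP1, a restraint on NF-kB signalling, was the member below 0, at -0.55 (-0.82 to -0.28).

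**Figure D4:**
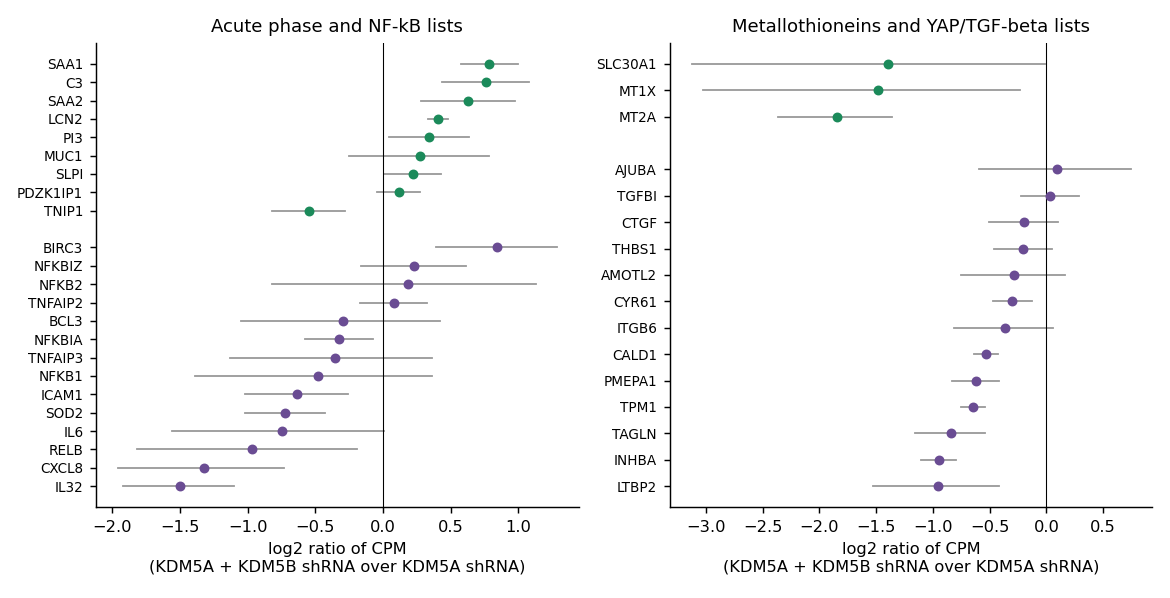
Log2 ratio of CPM, KDM5A and KDM5B shRNA over KDM5A shRNA, with its 95% counting interval, for members of 4 lists with at least 30 UMIs over both libraries and a count above 0 in each, 1 member not shown. In the left panel the acute-phase list (upper block) lies right of 0 except TNIP1, and most of the NF-kB list (lower block) lies left of 0. In the right panel the metallothioneins (upper block) and the YAP and TGF-beta genes (lower block) other than AJUBA and TGFBI lie left of 0.

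The 15 highest genes also held MUC16, PRSS22 and KRT13, described here for their rank and not as a group. MUC16, a membrane mucin, was at 131 CPM with KDM5A and KDM5B shRNA against 40.7 CPM with KDM5A shRNA, a log2 ratio of 1.68 (1.21 to 2.16). PRSS22, a secreted serine protease of airways, was at 194 and 82.1 CPM, a log2 ratio of 1.24 (0.89 to 1.60), and was higher than in each of the other 5 libraries. KRT13, a keratin of stratified epithelium, was at 372 and 175 CPM, a log2 ratio of 1.08 (0.84 to 1.33). Outside this pair KRT13 was at 186 to 1412 CPM, which makes the KDM5A shRNA library the lowest of the 6. A single cell held 30 of its 270 UMIs with KDM5A and KDM5B shRNA, and 1 held 31 of 280 with KDM5A shRNA. MUC16 was found in 12.1% of thinned cells (6.93 to 19.2) with KDM5A and KDM5B shRNA and 4.52% (2.55 to 7.34) with KDM5A shRNA. Of 9 keratins that entered, 6 were above 0, against 48.7% of all genes, with a median of 0.27. KRT17, a basal keratin, was at 2064 CPM with KDM5A and KDM5B shRNA against 2716 CPM with KDM5A shRNA. Its log2 ratio was -0.40 (-0.48 to -0.31). OLR1, the receptor for oxidised lipoprotein, was lower, at 285 and 526 CPM, a log2 ratio of -0.88 (-1.11 to -0.66).

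Of 16 cholesterol synthesis genes that entered, 13 were below 0, against 51.3% of all genes, with a median of -0.31. Over the alternative settings that median ranged between -0.40 and -0.03. Of the 16, 2 had an interval below 0 and 0 above, and 1 was at least 2-fold lower, against 2.25% of all genes. That gene, SQLE, the squalene epoxidase, was at 17.9 CPM with KDM5A and KDM5B shRNA (13 UMIs) and 53.9 CPM with KDM5A shRNA (86 UMIs), a log2 ratio of -1.59 (-2.55 to -0.74), and was lower than in all 5 other libraries. FDFT1, the squalene synthase, was at -0.60 (-0.99 to -0.22), and HMGCS1, at the head of the pathway, at -0.23 (-0.73 to 0.24). PHGDH, the entry enzyme of serine synthesis, was at 88.2 CPM with KDM5A and KDM5B shRNA against 27.6 CPM with KDM5A shRNA, a log2 ratio of 1.68 (1.10 to 2.27). PSAT1, the next enzyme of that route, went the other way, at 15.2 and 30.7 CPM, a log2 ratio of -1.02 (-2.11 to -0.06). Of the 6 libraries, the KDM5A shRNA library had the least PHGDH, with 75.7 to 236 CPM outside this pair. EGLN3, a prolyl hydroxylase induced by hypoxia, was at 63.4 and 140 CPM, a log2 ratio of -1.14 (-1.63 to -0.68). The hypoxia list had a median of 0.37, but of its 8 members that entered 0 had an interval above 0 and 1 below. Its sum was 375 CPM with KDM5A and KDM5B shRNA against 419 CPM with KDM5A shRNA. The log2 ratio of these sums was -0.16 (-0.37 to 0.04). Against 51.3% of all genes, all 10 heat shock genes were below 0, with a median of -0.15, and so were 8 of 12 immediate early genes, with a median of -0.35. FOS, the immediate early transcription factor, was at 135 CPM with KDM5A and KDM5B shRNA against 207 CPM with KDM5A shRNA, and JUN at 243 and 223 CPM.

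Several other genes of the ranking belong to none of these groups. On the high side NPM1, a nucleolar histone chaperone, was at 1168 CPM with KDM5A and KDM5B shRNA against 626 CPM with KDM5A shRNA, a log2 ratio of 0.90 (0.77 to 1.03), and was seen in 68.5% of thinned cells (59.6 to 76.6) against 46.4% (40.9 to 51.9). The KDM5A shRNA library had the least NPM1 of the 6, with 964 to 1502 CPM outside this pair. NPM1 has many near-identical processed copies, which the authors' counting could confuse with it. The intronless poly(A)-binding gene PABPC3 (log2 ratio 1.72) has a near-identical parent and is uncertain for the same reason. Entries named for the microRNA precursors hsa-mir-6723 (1.27) and MIR4426 (1.37) cannot be told from overlapping transcripts in this assay, and FYB, an adaptor known from immune cells, was at 92.3 and 38.2 CPM. On the low side, PKP4, a plakophilin of cell junctions, RAB32, a small GTPase of organelle traffic, and DGKD, a diacylglycerol kinase, had log2 ratios of -1.42 (-2.25 to -0.67), -1.05 (-1.48 to -0.65) and -1.30 (-2.03 to -0.63).

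Several gene lists stayed near the median of all genes. Medians lay between -0.09 and 0.06 for glycolysis, fatty acid synthesis, the nuclear respiratory chain, translation factors, FOXO and quiescence genes, apoptosis regulators, NRF2 and ferritin genes, the unfolded protein response and the integrated stress response. The interferon response, which foreign RNA can induce, had 5 genes above 0 and 4 below, a median of 0.31, just below 0 under 3 of the other settings, and none past 2-fold. Its member ISG15 was at 62.0 CPM with KDM5A and KDM5B shRNA against 50.1 CPM with KDM5A shRNA, a log2 ratio of 0.31 (-0.25 to 0.85). Genes named in the literature on drug tolerance had a median of 0.13 over 9, among them CD44, a hyaluronan receptor, at 0.69 (0.35 to 1.03), and AXL, a receptor kinase linked to resistance, at -0.10 (-0.56 to 0.34). MAPK output, which EGFR inhibition lowers, summed to 135 CPM with KDM5A and KDM5B shRNA against 118 CPM with KDM5A shRNA, a log2 ratio of 0.20 (-0.17 to 0.56), beside 1187 and 1272 CPM without the drug.

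**Figure D5:**
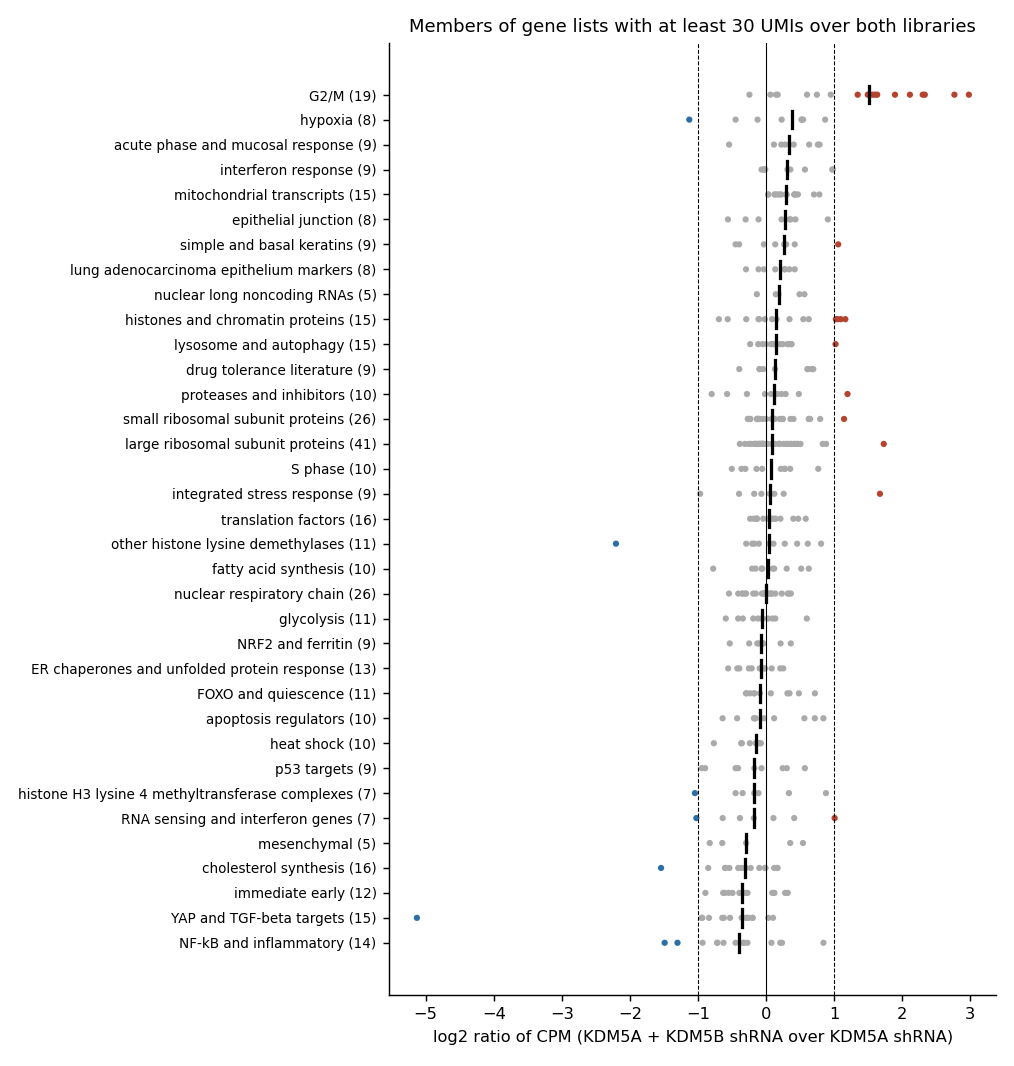
Log2 ratio of CPM, KDM5A and KDM5B shRNA over KDM5A shRNA with 0.5 added to each count, for the members that entered of each list with at least 5 of them, whose number is in brackets. Points past 2-fold are red (higher) or blue (lower), black bars are medians, and the list with the highest median, G2/M at 1.51, is at the top, with NF-kB and inflammatory at -0.39 at the bottom.

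Pseudogenes formed the group with the broadest shift. Of 255 pseudogene symbols that entered, 241 were above 0, against 48.7% of all genes, with a median of 0.95. At least 2-fold higher with KDM5A and KDM5B shRNA were 119 of these symbols, against 4.25% of all genes. The 199 that carry the symbol of a parent gene that also entered had a median of 0.98, while the 97 parents had a median of 0.08. MTATP6P1, a nuclear copy of mitochondrial sequence, was at 1190 CPM with KDM5A and KDM5B shRNA against 430 CPM with KDM5A shRNA, a log2 ratio of 1.47 (1.32 to 1.62). RPS2P5 and PPIAP22, copies of a ribosomal protein gene and of cyclophilin A, had log2 ratios of 2.17 (1.35 to 3.05) and 1.90 (1.30 to 2.51). The shift was present throughout the cells, whose median pseudogene share was 2.62% (quartiles 1.93 and 3.17) with KDM5A and KDM5B shRNA and 1.48% (1.24 and 1.77) with KDM5A shRNA. Libraries with CPI455 and KDM5A cDNA had 3.34% and 3.83% of UMIs on pseudogenes, and the scrambled and untreated libraries 1.63% and 1.23%. Pseudogene reads are near-identical to those of their parents, so these entries are uncertain.

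Mitochondrial transcripts took 7.99% of UMIs with KDM5A and KDM5B shRNA against 7.04% with KDM5A shRNA. All 15 list members were above 0, against 48.7% of all genes, with a median of 0.29. MT-ND4L, a subunit of complex I, was at 1389 and 807 CPM, a log2 ratio of 0.78 (0.66 to 0.90). The ribosomal RNA MT-RNR2 was at 0.03 (0.01 to 0.06). Cytoplasmic ribosomal proteins made up 10.6% of UMIs in both libraries. Of the 74 ribosomal protein genes that entered, 3 were at least 2-fold higher, against 4.25% of all genes. Genes of this class have many processed copies, so their counts are uncertain.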

How the data were processed

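Drop-seq was run on the human line PC9, with 1 library per condition. The authors deposited unnormalized counts: 1 table per library, with a UMI number for every barcode and gene symbol, all whole as the values show. Per the submitters' processing notes, STAR and FastQC were used with the build GRCh37.p13, or hg19. Versions, counting tool and choice of barcodes are not given in the sources used here.

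Cells had at least 500 UMIs and at most 20% mitochondrial UMIs. Doublets were not called, because PC9 is the only cell type present. UMIs were summed over cells and scaled to CPM. A gene entered with at least 30 UMIs over both libraries, and past 2-fold means a log2 ratio, with 0.5 added to each count, of at least 1 or at most -1. Gene type came from GENCODE on GRCh38 by symbol, which matched 18052 of 26195 symbols. Older symbols were matched through RefSeq. The pseudogene class also takes untyped symbols made of a parent symbol, P and digits. Named genes were KDM5A, KDM5B and EGFR, then the 15 highest and 15 lowest by the interval bound nearest 0, out of genes reaching 50 CPM in at least 1 of both libraries and without mitochondrial, ribosomal protein, pseudogene and clone-style entries, the 3 highest of each of those classes, and up to 4 members of each list with the most UMIs. Further list members were named after their values were seen. The members, the 44 gene lists and the alternatives were chosen with earlier results of these data known. The interval was run on simulated independent Poisson counts, the model it assumes. That run checks the computation and cannot show how the interval performs where UMIs are concentrated in a few cells. Scaling alternatives used edgeR 4.0.16 (TMM) and DESeq2 1.42.0 (median of ratios) in R 4.3.3. Other steps used Python 3.11.15, numpy 2.4.6, scipy 1.17.1 and pandas 2.3.3. Some genes that the rules name are not reported here.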

Additional observations from a re-analysis of the deposited data

Results flagged for a closer look

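In the library with KDM5A and KDM5B shRNA, 17.8% of barcodes holding 500 UMIs or more were past the mitochondrial limit and so left out of the comparison, above 1.13% and 0.766% in the scrambled and untreated control libraries, and 1.32% with KDM5A shRNA. These 33 barcodes held 44193 UMIs, with a median of 988 UMIs and 36.4% mitochondrial, against 5 barcodes with 6141 UMIs with KDM5A shRNA. Their acute-phase genes summed to 1742 CPM (1375 to 2178) against 5626 CPM in the kept cells of that library, their G2/M genes to 588 CPM (384 to 862) against 1210 CPM, and their YAP and TGF-beta targets to 8123 CPM (7305 to 9009) against 6521 CPM. These sums are over all UMIs, so a larger mitochondrial share lowers every other gene.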

How the results depend on the processing

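No paired analysis was possible because each condition had 1 library, and for the same reason no replicate could be left out. Over the alternatives, 470 of 506 values of 46 named genes stayed within their counting interval and 36 moved outside it. None, or 0, of those whose own interval leaves out 0 changed sign. For gene lists the limits were a span of the members' ratios, up to their full range in the smallest lists, and not a counting interval. Of 483 values of 39 lists, 474 stayed within this wide span and 9 moved. Staying does not mean an unchanged median: the NF-kB median of -0.03 in thinned cells stayed within -0.93 to 0.21. The median of the neutrophil chemokines and CCL20 ranged between -1.09 and 0.24. KDM5A ranged between -0.55 and 0.14 and KDM5B between -0.44 and 0.15. Under the 3 other scalings the median of all genes lay between 0.01 and 0.03, against -0.01. Genes at least 2-fold higher and lower numbered 79 and 105 with cells thinned to 1000 UMIs, 72 and 25 with entry at 100 UMIs, and 4947 and 1750 with entry at 1 UMI, and 488 and 375 by the mean of per-cell CPM. The pseudogene median was 0.75 thinned, 0.83 by the mean of per-cell CPM and 1.14 with entry at 1 UMI, and the metallothionein median was -2.20 by the mean of per-cell CPM. The G2/M median was 0.11 with entry at 100 UMIs. Cells with a G2/M UMI made up 59.4% with KDM5A and KDM5B shRNA against 64.8% with KDM5A shRNA at 2000 UMIs per cell, and 71.7% and 69.5% without thinning. The pseudogene share with KDM5A and KDM5B shRNA was 2.80% with no mitochondrial limit, 2.93% with at most 10%, 2.79% over all barcodes and 2.71% thinned. The cause of these shifts was not tested. The limit of 2000 UMIs per cell was added after seeing the data. Metallothioneins, and G2/M when thinned, had too few members for a median under some settings. Depth limits single genes: ratios rest on as few as 30 UMIs over both libraries, the bounds for MT1E and MT1F on 14 and 22, and the spread between cultures was not measured.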
